A study of Mus musculus with 2 samples.

Results

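Astrocytes of the mouse hippocampus were described in single-cell RNA libraries of a Fabry disease model. The cells were chosen by their measured marker counts, so the marker genes are no finding. A cell barcode was taken as an astrocyte when its unique molecular identifiers (UMIs, a count of captured RNA molecules) of Gja1, Ntsr2, Cldn10, Gjb6 and Aqp4 summed to at least 5 and the marker sums of 4 other classes stayed under their limits. These were fewer than 10 UMIs of oligodendrocyte markers (Mog, Mag, Ermn, Opalin, Cldn11), fewer than 4 of oligodendrocyte precursor markers (Pdgfra, Cspg4, Lhfpl3, C1ql1), fewer than 10 of microglial markers (P2ry12, Cx3cr1, Csf1r, Selplg, Gpr34) and fewer than 8 of choroid plexus markers (Folr1, Kcnj13, Sostdc1, Calml4, Cox8b, Kl). The rule took 809 of 10015 barcodes, 391 in the wt library and 418 in the GlaKO library. In GlaKO mice the gene Gla, for the lysosomal hydrolase alpha-galactosidase A, is inactive, and the wt mice were their littermates; both were 57 weeks old. Each genotype was 1 library made from dissociated hippocampus, and the labels state neither sex, strain nor the number of animals behind a library.

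Astrocytes clear glutamate and potassium from around synapses, are coupled to each other by gap junctions, wrap blood vessels with end-feet and make most of the apolipoprotein E and much of the lactate and glutamine that neurons use. In injury and disease they can become reactive, a state classically marked by intermediate filament genes. In Fabry disease, loss of alpha-galactosidase A lets globosides, a group of glycosphingolipids, build up in lysosomes.

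The astrocytes held 1327015 UMIs in wt and 1658189 in GlaKO. Their median depth was 2989 UMIs and 1690 genes per cell in wt and 3389.5 UMIs and 1843 genes in GlaKO. Mitochondrial genes gave 3.15% and 3.07% of UMIs. At an equal depth of 1500 UMIs per cell, which 385 wt and 414 GlaKO astrocytes reached, the medians were 988 and 987.5 genes. Between the libraries 6 barcodes were shared, of which 0 were astrocytes in both. The Y-linked genes Ddx3y, Kdm5d, Eif2s3y and Uty summed to 381 and 409 CPM in astrocytes, so both libraries held RNA of males. CPM here means UMIs per 1000000 UMIs of the astrocytes, or of another named class, in a library. A lower CPM can come from fewer expressing cells or from less RNA per cell, which summed counts cannot tell apart. The reads tag the 3' end of each RNA molecule, so levels were not divided by gene length.

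The count of rule markers was well above its limit in most of the cells. Its median was 27 UMIs (range 5 to 80) in wt and 29 (5 to 109) in GlaKO. Cells at exactly 5 UMIs numbered 4 and 3, and 9 barcodes in each library had 4 UMIs and would otherwise have passed. Another 27 wt and 53 GlaKO barcodes reached 5 UMIs but exceeded a limit for another class. The rule genes themselves describe the choice of cells and carry no test. Gja1, the gap junction protein connexin 43, stood at 2991 and 2943 CPM and was seen in 99.2% and 99.5% of the cells. Aqp4, the water channel of end-feet, stood at 962 and 879 CPM and was seen in 88.2% and 87.8%.

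Astrocyte markers that took no part in the rule were at high levels in the chosen cells of both libraries. A set of 15 such genes summed to 36687 CPM in wt and 38614 CPM in GlaKO, against 3894 CPM or less in any other gated class. Among them Aldh1l1, a folate enzyme widely used to label astrocytes, stood at 245 and 222 CPM, and S100b, a calcium-binding protein, at 404 and 405 CPM. Fgfr3, a fibroblast growth factor receptor, stood at 778 and 792 CPM. Of genes typical of telencephalic astrocytes, Mfge8 stood at 3180.1 and 3205 CPM and Lhx2 at 240.4 and 226 CPM. Of the genes of astrocytes outside the telencephalon, Irx2 and Irx5 were listed in neither library. Agt, Itih3 and Sparc, which mark astrocytes of other regions more strongly, gave most of the 1176 and 1157 CPM of that set. The name astrocyte was kept on these levels.

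Markers of other cells were low in the class, but several differed between the libraries. Myelin genes, among them Mbp, Mobp, Cnp and Mal, summed to 672 CPM in wt and 1064 CPM in GlaKO, against 53879 and 49371 CPM in oligodendrocytes. Complement C1q genes, made by microglia, summed to 129 and 236 CPM, and haemoglobin genes to 36.9 and 172 CPM. Choroid plexus rule genes went the other way, at 105 CPM in wt and 36.8 CPM in GlaKO. The pericyte gene Rgs5 gave 59 UMIs in wt and 2 in GlaKO, in 0.512% and 0.478% of the cells, so few barcodes carried it. Neuron markers summed to 176 and 231 CPM and ependymal markers to 153 and 191 CPM. T cell markers stood at 6.03 CPM in wt and 74.2 CPM in GlaKO, where 120 of 123 T cell UMIs lay in 5 barcodes, with 0 such barcodes in wt. The plot of summed marker levels shows these values for each class and library.

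Astrocytes made up 7.18% of wt barcodes (95% Clopper-Pearson interval 6.51 to 7.90%) and 9.14% of GlaKO barcodes (8.32 to 10.02%). The order of the libraries depended on the choroid plexus, which held 2539 wt and 788 GlaKO barcodes. Of barcodes outside that gate, astrocytes were 13.5% in wt (12.2 to 14.8%) and 11.05% in GlaKO (10.1 to 12.1%). These and all other intervals cover counting error only, and with 1 library per genotype neither share can be compared by a test.

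The most abundant astrocyte transcripts were those of lipid carriage, glutamate uptake and metal binding. Apoe, the main lipoprotein of the brain, stood at 30863 CPM in wt and 29304 CPM in GlaKO, and Cst3, a secreted cathepsin inhibitor that microglia make at a higher level, at 25196 and 24886 CPM. Slc1a2, the glutamate transporter GLT-1, reached 9723 and 10328 CPM. The synapse-acting Sparcl1 reached 6298 and 6572 CPM, the chaperone clusterin (Clu) 5469 and 6093 CPM and the glycolytic enzyme Aldoc 4889 and 4456 CPM. The 2 libraries therefore held these genes at nearly the same level, and every ratio among the 20 most abundant genes lay between -0.20 and 0.20 on the log2 scale.

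A shorter set of genes was nearly exclusive to the class. Of 5523 genes with at least 100 summed astrocyte UMIs, 254 were at least 4-fold and 110 at least 10-fold above the highest of the 4 other gated classes. Neurons and vascular cells were not gated, so these folds do not cover them. Outside the rule, Agt, the precursor of angiotensin, stood at 403 and 415 CPM, 155-fold above oligodendrocyte precursors, the next class. Grin2c, an NMDA receptor subunit typical of astrocytes, stood at 437 and 422 CPM and was 122-fold above the next class. Mlc1, an end-foot membrane protein, stood at 623 and 669 CPM and was 120.3-fold above. Hsd11b1, the enzyme that regenerates active glucocorticoid inside the cell, stood at 277 and 350.4 CPM and was 94.8-fold above, with a log2 ratio of GlaKO over wt of 0.34 (95% interval 0.15 to 0.53).

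Metallothioneins, small cysteine-rich proteins that bind zinc and copper, were among the strongest astrocyte transcripts. Mt1 stood at 8667 CPM in wt and 7571 CPM in GlaKO, Mt2 at 1491 and 1323 CPM, and Mt3, the form best known from brain, at 6776 and 6140 CPM. Transcription of Mt1 and Mt2 is known to follow metals through a metal response element and glucocorticoids through other sequences. Their promoters are shown because the 3 genes stood lower together in GlaKO astrocytes and Mt1 and Mt3 varied together between cells. Sequences are from RefSeq on GRCm38.p6, all on the + strand of chromosome 8 and running from 250 bases before to 50 bases after the gene's start: Mt1 at chr8:94178839-94179138, Mt2 at chr8:94172368-94172667 and Mt3 at chr8:94152357-94152656. Capitals mark matches to the metal response element core, TGCGCNC or TGCACNC, on either strand.
Mt1: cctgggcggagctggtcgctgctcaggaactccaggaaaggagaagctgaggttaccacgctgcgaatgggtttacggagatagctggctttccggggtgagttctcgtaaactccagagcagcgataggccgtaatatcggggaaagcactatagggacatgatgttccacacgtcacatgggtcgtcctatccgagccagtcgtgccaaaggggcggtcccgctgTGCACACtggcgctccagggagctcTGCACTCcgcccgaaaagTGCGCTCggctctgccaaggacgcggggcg
Mt2: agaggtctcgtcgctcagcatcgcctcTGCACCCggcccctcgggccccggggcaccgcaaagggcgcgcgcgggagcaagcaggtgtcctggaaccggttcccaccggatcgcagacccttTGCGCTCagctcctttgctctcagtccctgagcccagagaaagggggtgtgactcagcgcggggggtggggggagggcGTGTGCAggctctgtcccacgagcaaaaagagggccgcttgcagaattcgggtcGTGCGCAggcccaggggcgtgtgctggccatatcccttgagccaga
Mt3: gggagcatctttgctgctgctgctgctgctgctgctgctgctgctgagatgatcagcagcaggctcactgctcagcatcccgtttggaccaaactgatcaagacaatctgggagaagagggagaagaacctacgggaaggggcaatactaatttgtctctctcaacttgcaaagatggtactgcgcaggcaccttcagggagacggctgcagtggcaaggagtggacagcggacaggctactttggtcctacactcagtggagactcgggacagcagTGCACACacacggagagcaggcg
Mt1 held 3 matches, Mt2 4 and Mt3 1. Among 32851 promoters of the same length, 25.7% held at least 1 match, 1.97% at least 3 and 0.517% at least 4. A match is a description of these letters and not a measured binding site.

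Several of the same abundant genes were among the most variable between cells by variance over mean. This measure tends to rise with a gene's level, so it favours abundant genes. At 1500 UMIs per cell the variance over the mean, which is 1 for pure counting noise, had a median of 1.04 in wt and 1.05 in GlaKO over 4989 genes, and 31 genes reached 2 in both libraries. Among the 15 most variable were Cst3 (16.9 and 17.5), Apoe (13.9 and 17.1), Mt1 (7.74 and 7.61), Slc1a2 (6.23 and 6.15), Mt3 (5.91 and 6.13) and Clu (3.64 and 4.44). The most variable gene was Gm26870, a predicted gene with 32.3 and 33.6, which had no UMI in 93.5% and 90.6% of cells. Cldn5, a tight junction gene of endothelium, had none in 98.2% and 98.8%, so a few barcodes carried its variance.

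Apoe counts per cell ran from 4 to 172 with a median of 45 in wt, and from 1 to 168 with a median of 42.5 in GlaKO. Slc1a2 ran from 0 to 79 (median 14) and from 0 to 60 (median 15). Mt1 ran from 0 to 62 (median 9) and from 0 to 55 (median 7). For these genes the spread between cells of 1 library was far wider than the shift between libraries.

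Across cells the variable genes formed groups that recurred in both libraries. Mt1 correlated with Mt3 (Pearson r 0.66 in wt and 0.70 in GlaKO), with Aldoc (0.50 and 0.45) and with the creatine kinase Ckb (0.50 and 0.53). Apoe correlated with Cst3 (0.65 and 0.60) and with Clu (0.56 and 0.55). Slc1a2 correlated weakly and negatively with Mt1 (-0.22 and -0.26) and with Ckb (-0.30 and -0.27). These are descriptions over 385 and 414 cells that share a library and an equal depth, in which a fixed total pushes abundant genes apart. The plot of single-cell counts shows the spread of 6 genes.

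**Figure D1:**
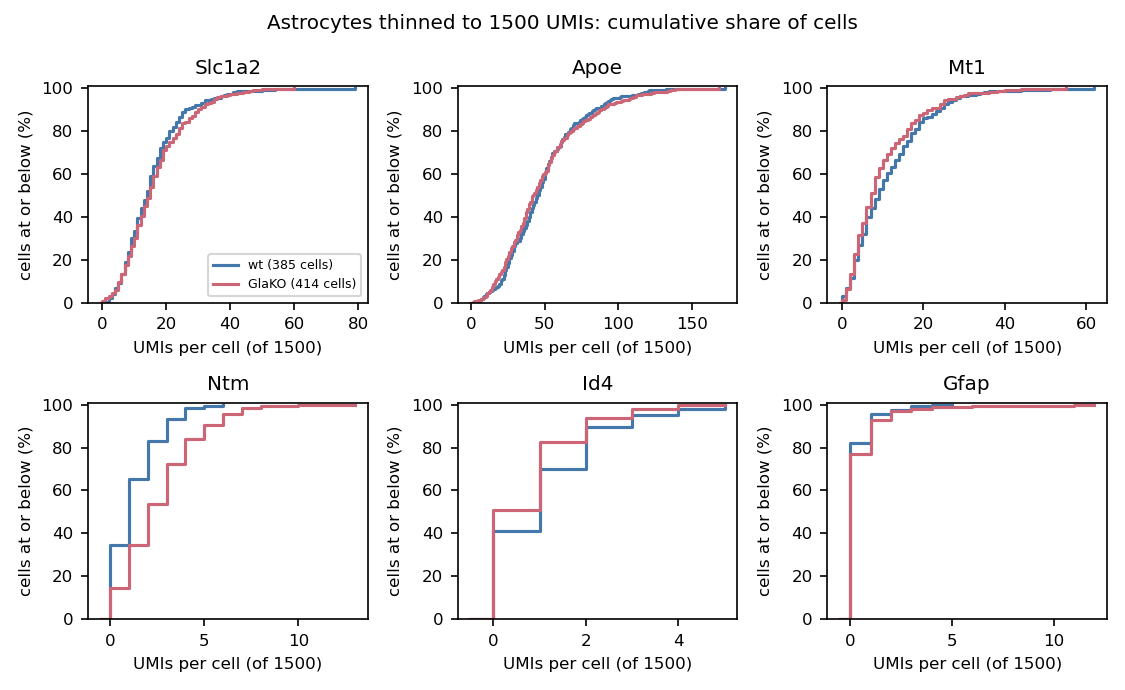
Cumulative share of astrocytes (%) with at most a given number of UMIs of 6 genes, each cell thinned to 1500 UMIs, in wt (385 cells) and GlaKO (414 cells). The curves of Slc1a2 and Apoe nearly coincide, Mt1 lies to the left in GlaKO (medians 9 and 7), and Ntm lies to the right (medians 1 and 2).

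GlaKO and wt astrocytes were then compared gene by gene, as the ratio of CPM in GlaKO over wt on the log2 scale with an exact 95% interval. With 1 library per genotype this compares 2 libraries and not the genotypes, and no gene was tested; an interval that leaves out 0 says only that counting error alone is smaller than the difference. Gla itself gave 14 UMIs in wt and 16 in GlaKO astrocytes, 10.6 and 9.65 CPM, a log2 ratio of -0.13 (-1.26 to 1.02), so the few UMIs cannot show a difference of this size. In the other classes the log2 ratio of Gla was -0.10 (-0.70 to 0.51) in oligodendrocytes and -1.80 (-2.74 to -0.93) in precursors. It was -0.75 (-1.41 to -0.08) in microglia and -1.21 (-1.73 to -0.72) in choroid plexus cells. A 3' tag count does not check a deletion elsewhere in the gene.

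Of the 5523 genes, 114 stood at least 1.5-fold higher in GlaKO astrocytes (2.06%) and 71 at least 1.5-fold lower (1.29%). The interval lay above 0 for 360 genes (6.52%) and below 0 for 325 (5.88%). The median log2 ratio was -0.00, and the middle 90% of genes lay between -0.39 and 0.43. Genes past 1.5-fold with an interval excluding equal levels numbered 113 and 71. Of these, 26 higher and 21 lower genes stood in astrocytes under 25% of their level in another class. The higher ones included Mbp, Mal, C1qb, C1qc and Hbb-bs, and the lower ones the choroid plexus gene 1500015O10Rik. The summed marker levels of those other cells differed in the same direction, as given above, and their part in these ratios was not tested. The genes described next were the 15 highest and 15 lowest by the interval bound nearest 0. Each reached 25% of the level in any other class, taken as the mean of the 2 libraries. A gene could therefore pass through the library where it was high, as for Ccl5, at 6.03 CPM in wt and 122 CPM in GlaKO. The plot of ratio against level marks the named genes among all genes.

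**Figure D2:**
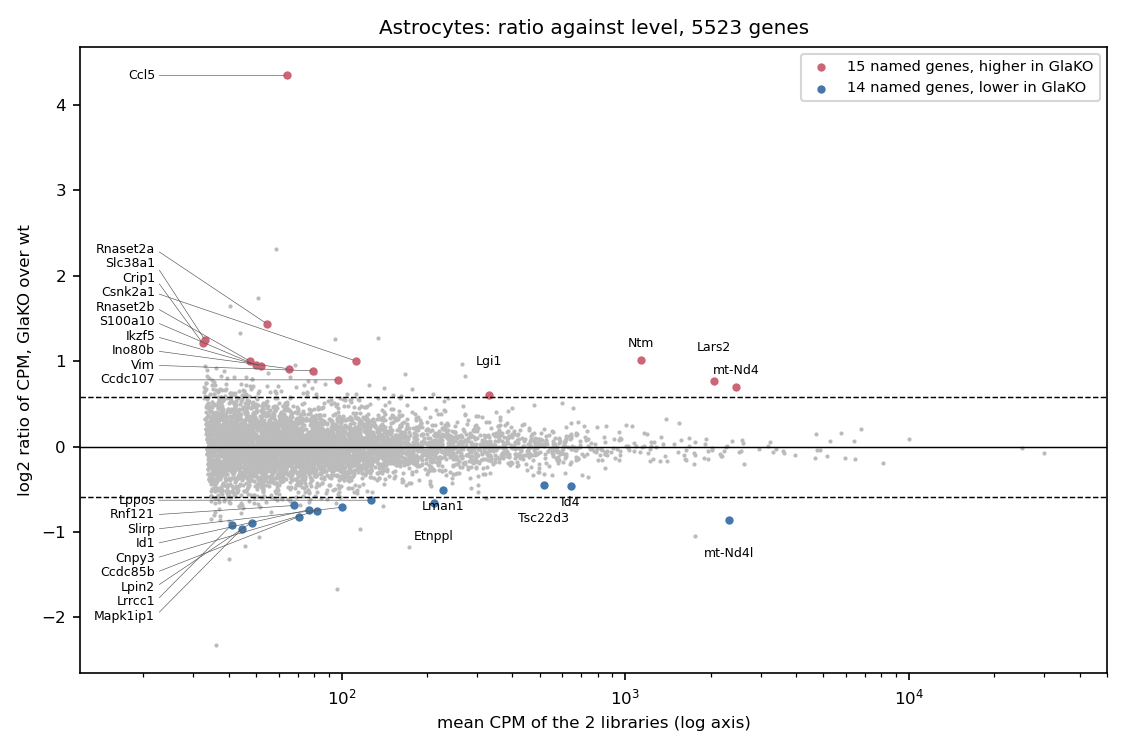
Log2 ratio of CPM, GlaKO over wt, against mean CPM (log axis) for 5523 genes in astrocytes, with 15 named higher and 14 named lower genes coloured and dashed lines at 1.5-fold. Most genes lie within -0.39 to 0.43, Ntm and Lars2 stand out at high level, and Ccl5 reaches 4.34.

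Ntm, the adhesion molecule neurotrimin of the IgLON family (chr9:28994750-29963141, - strand, GRCm38), was the clearest of the genes higher in GlaKO. It stood at 755 CPM in wt and 1525 CPM in GlaKO, a log2 ratio of 1.01 (0.91 to 1.12). At equal depth 65.5% of wt astrocytes (60.5 to 70.2%) and 85.5% of GlaKO astrocytes (81.7 to 88.8%) had a UMI of Ntm, and without thinning 86.4% and 95.7%. Oligodendrocytes, taken as the background, had shares of 0.822% and 1.55% at equal depth, from median depths of 5821 and 6702.5 UMIs. The ratio was 1.49 in oligodendrocytes, 0.99 in microglia and 1.05 in oligodendrocyte precursors, where the gene also stood at 456 and 944 CPM.

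Lgi1, a secreted ligand of synaptic ADAM receptors (chr19:38264536-38312214, + strand), stood at 262 CPM in wt and 399 CPM in GlaKO (0.60, 0.41 to 0.80). It was seen in 31.9% and 45.9% of astrocytes at equal depth and in 0.469% and 1.03% of oligodendrocytes. Lars2, the mitochondrial leucyl-tRNA synthetase, stood at 1518 and 2594 CPM (0.77, 0.70 to 0.85). Csnk2a1, a catalytic subunit of casein kinase 2 (chr2:152226839-152281852, + strand), stood at 74.6 and 149.6 CPM (1.00, 0.66 to 1.35). Both were also higher, by their intervals, in all 4 other classes.

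The intermediate filament gene Vim (chr2:13573927-13582826, + strand) stood at 55.8 CPM in wt and 103 CPM in GlaKO, a log2 ratio of 0.89 (0.49 to 1.30). At equal depth it was seen in 7.01% of wt (4.67 to 10.0%) and 8.94% of GlaKO astrocytes (6.37 to 12.1%), so the intervals overlapped. Oligodendrocytes had shares of 2.11% and 1.99%. The ratio of Vim was 0.47 (0.22 to 0.73) in microglia and 0.56 (0.39 to 0.72) in choroid plexus cells. It was 0.20 (-0.18 to 0.59) in oligodendrocytes and -0.07 (-0.56 to 0.42) in precursors. Without thinning Vim was seen in 13.8% and 19.4% of astrocytes. Its ratio ranged from 0.54 to 1.06 over the settings, and the top GlaKO cell held 12.9% of its GlaKO UMIs. S100a10, an annexin partner, stood at 33.9 and 65.7 CPM (0.95, 0.44 to 1.49). In other classes its ratio was 1.32 (0.86 to 1.81) in microglia and 0.63 (0.14 to 1.11) in choroid plexus cells. In oligodendrocytes it was -0.31 and in precursors -0.76, both with intervals that included 0. In astrocytes S100a10 had a ratio of 0.72 without the 5 GlaKO barcodes with T cell markers. Crip1, a LIM-domain protein, had a ratio of 1.21, and 0.51 without those barcodes. Slc38a1, an amino acid transporter, stood at 19.6 and 46.4 CPM (1.24), with a ratio of 0.65 at equal depth. Ccdc107 stood at 71.6 and 123 CPM (0.78), Ino80b at 45.2 and 85.0 CPM (0.91) and Ikzf5 at 35.4 and 68.1 CPM (0.94).

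Ccl5, a T cell chemokine, had the highest ratio, 4.34 (3.34 to 5.58), from 8 wt and 203 GlaKO UMIs. Of the GlaKO UMIs 187 lay in the 5 barcodes with T cell markers, and without those barcodes, a setting chosen after seeing the data, the ratio was 0.72. Rnaset2a and Rnaset2b are near-identical copies whose reads the counting could split either way. Summed, the pair stood at 61.0 CPM in wt and 143 CPM in GlaKO (1.23, 0.86 to 1.61), and at ratios of 1.27 to 1.55 in the 4 other classes. The overlapping mitochondrial genes mt-Nd4 (1881 and 3041 CPM, 0.69) and mt-Nd4l (2986 and 1646 CPM, -0.86) went in opposite directions. Summed they stood at 4867 and 4686 CPM (-0.05, -0.10 to -0.01), so the total of the pair was nearly equal.

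Among genes lower in GlaKO astrocytes, Etnppl, an enzyme that breaks down phosphoethanolamine (chr3:130617448-130637521, + strand), was the most restricted to the class among the 15 named, 125.9-fold above any other. It stood at 259 CPM in wt and 163 CPM in GlaKO, a log2 ratio of -0.67 (-0.90 to -0.43). At equal depth 29.6% of wt (25.1 to 34.4%) and 23.9% of GlaKO astrocytes (19.9 to 28.3%) had a UMI, against 0.117% and 0.368% of oligodendrocytes, so the shares themselves were not separated by their intervals. Oligodendrocytes held 8 and 16 UMIs of it, too few for a comparison.

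The Id genes encode inhibitors of basic helix-loop-helix transcription factors and are known targets of BMP signalling. Id4 (chr13:48261228-48266026, + strand) stood at 745 CPM in wt and 542 CPM in GlaKO (-0.46, -0.59 to -0.33), and Id1 (chr2:152736251-152737410, + strand) at 95.7 and 57.3 CPM (-0.74, -1.14 to -0.35). Id2 stood at 830 and 648 CPM (-0.36, -0.48 to -0.23), whereas Id3 stood at 361 and 377 CPM (0.06). Summed, the 4 genes stood at 2032 CPM in wt and 1623 CPM in GlaKO astrocytes (-0.32, -0.40 to -0.25). The same sum had ratios of -0.13 (-0.35 to 0.09) in oligodendrocytes, 0.01 in precursors, 0.20 (0.04 to 0.36) in microglia and 0.40 (0.35 to 0.45) in choroid plexus cells. Id1 and Id4 were named for their low astrocyte ratios, so a lower sum in astrocytes than in other classes was favoured in advance. The sum also hides its members: in precursors Id3 had a ratio of -0.94 (-1.29 to -0.60) and Id2 0.49 (0.25 to 0.73). Whether the classes differ beyond 1 library each was not tested. At equal depth Id4 was seen in 59.0% of wt and 49.0% of GlaKO astrocytes and in 1.88% and 0.883% of oligodendrocytes.

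Tsc22d3, the glucocorticoid-induced leucine zipper GILZ (chrX:140539528-140600659, - strand), stood at 597 CPM in wt and 435 CPM in GlaKO (-0.45, -0.60 to -0.31). Lpin2, a phosphatidate phosphatase, had a ratio of -0.89, the chaperone-like Cnpy3 -0.75, the mitochondrial RNA-binding Slirp -0.71 and the cargo receptor Lman1 -0.50. Mapk1ip1 (-0.96), Ccdc85b (-0.82), Lrrcc1 (-0.92) and the ubiquitin ligase gene Rnf121 (-0.69) were also among the 15. Lppos (-0.63) is by its name on the strand opposite Lpp, so its count is uncertain. By their intervals 5 of the 15 higher and 3 of the 15 lower genes went the same way in all 4 other classes. Lower genes with no such interval in any other class numbered 6: Etnppl, Lpin2, Cnpy3, Lrrcc1, Id1 and Id4. Among the higher genes there was 1, Ccdc107. These counts were not set against the share over all genes. Some other classes held few UMIs of these genes. Id4 gave 44 wt and 67 GlaKO UMIs in oligodendrocytes, -0.29 (-0.86 to 0.29), an interval that holds the astrocyte ratio. By their intervals 3 of the 15 higher and 3 of the 15 lower genes went the opposite way in at least 1 other class. These, too, were not set against the share over all genes. The map of ratios by class shows the named genes in each class.

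**Figure D3:**
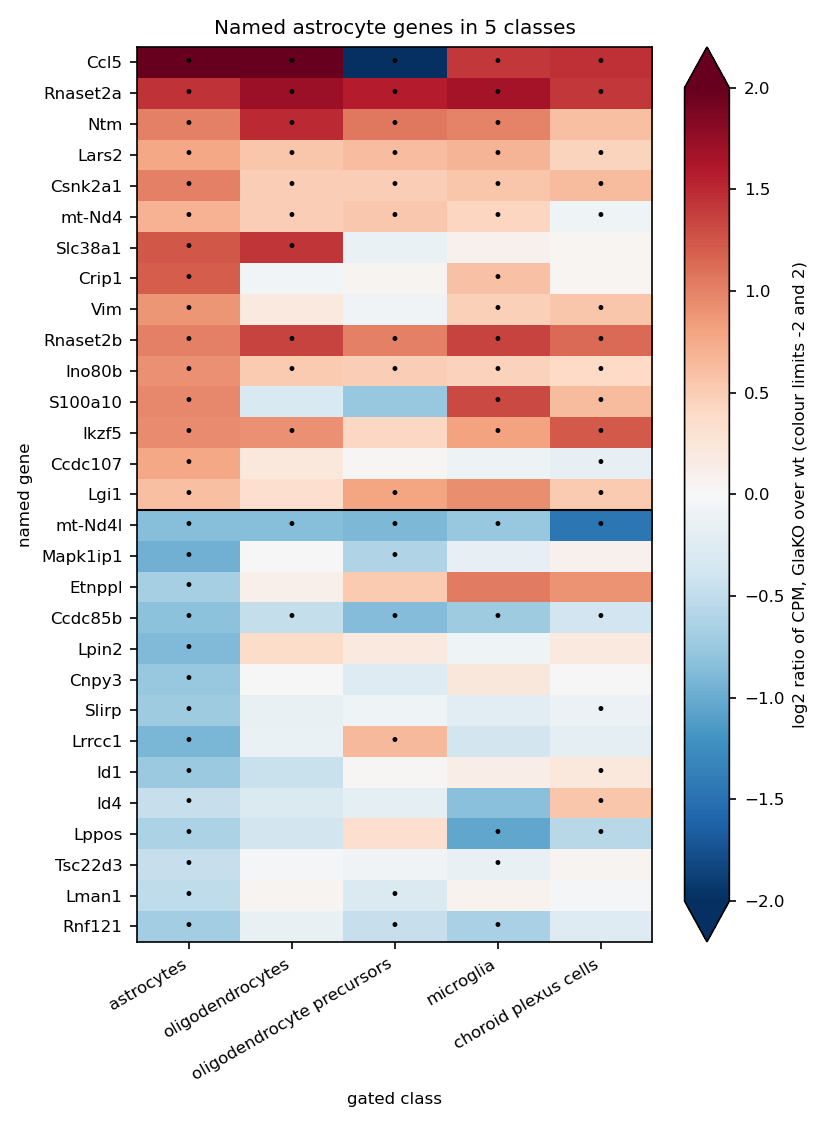
Log2 ratio of CPM (colour, limited at -2 and 2), GlaKO over wt, of 29 named astrocyte genes (rows) in 5 gated classes (columns); dots mark intervals that exclude 0. Rnaset2a, Lars2, Csnk2a1, Rnaset2b and Ino80b are higher, and mt-Nd4l and Ccdc85b lower, in all 5 classes.

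Gene lists of astrocyte function were then read against the background of 6.52% of genes with an interval above 0 and 5.88% below. Of all 5523 genes, 2801 had a ratio under 0 and 2722 a ratio over 0. Glutamate and GABA handling showed 2 of 16 measured genes above, 3 below and a median log2 ratio of -0.05. Both glutamate transporters were the genes above: Slc1a2 at 9723 and 10328 CPM (0.09, 0.05 to 0.12) and Slc1a3, known as GLAST, at 4478 and 4964 CPM (0.15, 0.10 to 0.20). Slc6a11, the GABA transporter GAT-3, was below at 999.99 and 897 CPM (-0.16, -0.26 to -0.05), as was Phgdh, which opens serine synthesis, at 603 and 542 CPM (-0.15). Got1, an aspartate transaminase, stood at 60.3 and 38.0 CPM (-0.67). Glutamine synthetase (Glul) stood at 3662 and 3541 CPM, with an interval that included 0.

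Potassium, water and ion handling had 5 of 15 genes above and 1 below, with a median of 0.09. The inward rectifier potassium channel Kcnj10, or Kir4.1, stood at 301 CPM in wt and 398 CPM in GlaKO (0.40, 0.22 to 0.58). Kcnj16, its partner subunit Kir5.1, stood at 108 and 160.4 CPM (0.57, 0.28 to 0.88). The pump subunits Atp1b2 (0.10) and Atp1b1 (0.21) were also above, and Aqp4 (-0.13), a rule gene whose counts helped choose the cells, was the gene below. Kcnj16 was seen in 16.6% of wt and 21.3% of GlaKO astrocytes at equal depth, and in 0.469% and 0.147% of oligodendrocytes. These genes keep extracellular potassium low, and both channel subunits stood higher under every alternative setting, between 0.35 and 0.48 for Kcnj10 and 0.53 and 0.61 for Kcnj16.

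Gap junction and adhesion genes were nearly level, with 1 of 14 above, Ntm, and 2 below. The latter were the rule genes Gjb6 (connexin 30, -0.16) and Cldn10 (-0.09). Receptors and calcium signalling had 3 of 20 above and 2 below, all within 0.28 of 0: Itpr2, the main astrocytic inositol trisphosphate receptor (0.28), the AMPA receptor subunit Gria2 (0.11) and the lipid receptor S1pr1 (0.08) above, and the rule gene Ntsr2 and Gpr37l1 below. Among secreted and phagocytic genes that act on synapses, 3 of 16 were above and 1 below. Vegfa, the vascular growth factor, stood at 555 CPM in wt and 759 CPM in GlaKO (0.45, 0.32 to 0.59), and Lrp1, a lipoprotein receptor, at 347 and 421 CPM (0.28). Gpc5, a glypican, stood at 476 and 414 CPM (-0.20).

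Glycolysis, glycogen and lactate genes leaned lower, with 19 of 25 under 0, 4 below by their interval, 0 above and a median of -0.07. The list also leaned lower in oligodendrocytes (13 of 20 genes), precursors (9 of 15) and microglia (13 of 18). In choroid plexus cells 9 of 24 were under 0. Counts over all genes in these classes are given below with the glucocorticoid list. Eno1 (enolase) stood at 680 CPM in wt and 551 CPM in GlaKO (-0.30, -0.44 to -0.17), and the glucose transporter Slc2a1 at 195 and 159 CPM (-0.29). Ldhb, a lactate dehydrogenase, had a ratio of -0.16 and Aldoc of -0.13. Fatty acid genes had 1 of 17 above (Echs1) and 1 below (Hadhb), and cholesterol synthesis 1 of 24 above (Insig2, but -0.10 at equal depth) and 1 below. The latter was Msmo1, a sterol oxidase, at 1299.9 and 1155 CPM (-0.17). Lipoprotein genes had 4 of 12 above and 2 below: Clu (0.16) above and Apoe (-0.07) and Lcat (-0.18) below, with the smaller counts of Nr1h2, Lrp1 and Apod above. Apoe stood at 0.0185 with cells split equally over depth. Apod stood at 2.59% of its level in oligodendrocytes, and at -0.64 with the other classes' limits halved and -0.62 without the highest doublet scores.

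The lysosomal lists bear on the organelle in which the missing enzyme works. Of 41 enzymes and cofactors, 26 reached 100 UMIs, 19 of them above 0, 4 by their interval and 0 below, and the median was 0.09. Ppt1, a palmitoyl thioesterase, stood at 88.2 CPM in wt and 123 CPM in GlaKO (0.48, 0.15 to 0.82), and Ctsa, the protective protein cathepsin A, at 122 and 153 CPM (0.32, 0.03 to 0.62). Ctss, a cathepsin, stood at 40.7 and 59.7 CPM and is mainly a microglial gene, and in all 8 of the 26 genes, this one among them, were under 25% of their level in another class. The complement genes of microglia were higher in GlaKO astrocytes too, at 129 and 236 CPM, and their part in these ratios was not tested. Psap, the saposin precursor and most abundant member, stood at 1237 and 1171 CPM (-0.08, -0.18 to 0.02). Of lysosomal membrane and proton pump genes 0 of 25 were above and 2 below: Atp6v0d1 at 187 and 141 CPM (-0.41) and Atp6v1e1 at 266 and 216 CPM (-0.30). Lamp1 stood at 745 and 769 CPM. In choroid plexus cells the enzyme list had a median of -0.39, where all genes compared in that class had 0.07; the difference from astrocytes was not tested.

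For synthesis of sphingolipids and globosides the depth allowed little. Of 33 gene symbols, 30 were listed in both libraries and only 14 reached 100 UMIs. The 1 gene above was S1pr1, a lipid receptor and not an enzyme of synthesis, and 0 were below. The interval of a gene reached 0.45 to either side at the median. Galc, the galactosylceramidase of the lysosomal list, stood at 33.9 and 42.8 CPM (0.34, -0.22 to 0.91), an interval that holds both equal levels and a 1.5-fold difference. Autophagy genes had 1 of 22 above (Atg9a) and 2 below, Becn1 (-0.64) and Map1lc3a (-0.37).

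Of the genes of the reactive state few could be compared. Only 6 of 20 general reactive genes reached 100 UMIs. Gfap, the classical filament marker, stood at 189.9 CPM in wt and 226 CPM in GlaKO (0.25, 0.01 to 0.48) and was seen in 17.9% (14.2 to 22.1%) and 22.9% (19.0 to 27.3%) of astrocytes at equal depth, against 2.23% and 1.99% of oligodendrocytes. Its ratio ranged from 0.18 to 0.66 over the settings. Vim (0.89) and Cd9 (0.29, at 13.6% of its level in another class) were also above, S100b stood at 404 and 405 CPM, Stat3 had a ratio of -0.34 with an interval that included 0, and Hspb1 was below, at -0.86. Hspb1 stood at 0.10 with a marker sum of at least 10 and at 0.37 without barcodes carrying neuron, vascular or lymphocyte markers. The median of the 6 genes was 0.13. The ischaemia set had 1 compared gene of 12, S100a10 (0.95). Serpina3n gave 19 and 22 UMIs and Cd44 2 and 20, too few to compare. Of the inflammatory set, C4b, a complement component, stood at 142 and 151 CPM (0.09, -0.19 to 0.37). MHC class I genes H2-K1 (0.38), B2m (0.54) and H2-D1 (0.62) were above, and stood at 0.17, 0.11 and -0.05 without the 5 T cell marker barcodes.

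Transcription factors of astrocytes had 8 of 23 above and 1 below. Sox9, which specifies glia, stood at 492 CPM in wt and 703 CPM in GlaKO (0.51, 0.38 to 0.66), but its share of cells at equal depth was 47.3% and 50.7%, and the ratio at equal depth was 0.18. The nuclear factors Nfia (0.23), Nfib (0.26) and Nfix (0.42), Tcf4 (0.24), Hopx (0.26), Rfx4 (0.25) and Sox2 (0.17, but -0.06 at equal depth) were also above, and Npas3 (-0.27) below. The list's median was 0.10. It stood at -0.01 with each cell weighted the same, so the list's direction depended on how cells were weighted. In astrocytes 13 of 23 genes of the list stood over 0. The list also leaned higher in oligodendrocytes (10 of 11 genes), precursors (13 of 17), microglia (3 of 5) and choroid plexus cells (11 of 14). Over all genes compared, 4974 of 8745, 3496 of 6804, 3294 of 7340 and 5806 of 9463 were over 0 in these 4 classes. The difference between classes was not tested.

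Over the list of Notch, BMP, Hedgehog and Wnt genes 14 of 24 stood above 0, with a median of 0.05, and by the interval 6 were above and 3, the Id genes, below. The receptor Notch2 stood at 119.8 CPM in wt and 183 CPM in GlaKO (0.61, 0.33 to 0.89), Notch1 at 163 and 203 CPM (0.32, 0.07 to 0.57) and the ligand Jag1 at 43.7 and 68.1 CPM (0.64, 0.17 to 1.12). The target Hes1 stood at 262 and 335 CPM (0.35, 0.16 to 0.55), while the target Hes5 stood at 476 and 437 CPM (-0.13, -0.28 to 0.03). The target Hey1 had a ratio of 0.55 (-0.02 to 1.14) and the Notch transcription factor Rbpj 0.28 (-0.21 to 0.77), both with intervals that included 0. Notch2 was also higher by its interval in the 4 other classes, and Hes1 in precursors (0.76), microglia (0.52) and choroid plexus cells (0.78). Tcf7l2 (0.26) and Dkk3 (0.27), of the Wnt pathway, were the others above.

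Glucocorticoid-responsive genes leaned lower, with 14 of 15 under 0, 6 below by their interval, 0 above and a median of -0.17. Besides Tsc22d3, those below were Mt1 (-0.20, -0.23 to -0.16), Mt2 (-0.17, -0.26 to -0.08), Mt3 (-0.14, -0.18 to -0.10), the rule gene Gjb6 and Angptl4, a lipase inhibitor at 46.7 and 30.8 CPM (-0.60). The receptor Nr3c1 stood at 202 and 182 CPM (-0.15, -0.40 to 0.09). The list also leaned lower in oligodendrocytes (16 of 17 genes), precursors (11 of 13) and microglia (13 of 15), but not in choroid plexus cells (5 of 15). Over all genes compared, 3771 of 8745, 3308 of 6804, 4046 of 7340 and 3657 of 9463 were under 0 in these classes, in the same order. Within it Tsc22d3 had a ratio of -0.03 in oligodendrocytes, -0.07 in precursors and -0.15 in microglia, whereas Mt1 had -0.39, -0.21 and -0.15, with -0.58 in choroid plexus cells. Mt3, in contrast to Mt1 and Mt2, had 0.05 in choroid plexus cells. These are the genes whose promoters are printed above. The difference between classes was not tested.

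Antioxidant and metal-binding genes, which share the metallothioneins, had 18 of 25 under 0, 8 below and 1 above, with a median of -0.10. Under 0 were also 22 of 29 in oligodendrocytes, 19 of 26 in precursors, 14 of 26 in microglia and 16 of 30 in choroid plexus cells. Prdx6, a peroxiredoxin, stood at 1980.4 CPM in wt and 1812 CPM in GlaKO (-0.13). Gstp1, a glutathione transferase, stood at 153 and 78.4 CPM (-0.96, -1.29 to -0.64) at 8.34% of its oligodendrocyte level, and was similarly lower in all 4 other classes, by -0.65 to -0.96. Gstm5 (0.08) was the gene above.

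Stress genes were mixed. Of heat-shock and chaperone genes 4 of 15 were above and 2 below: Hsp90aa1 stood at 399 CPM in wt and 557 CPM in GlaKO (0.48, 0.33 to 0.64) at 13.2% of its level in another class, Hsph1 at 44.5 and 64.5 CPM (0.54), while the inducible Hspa1a (-1.16) and Hspb1 (-0.86) were each seen in no more than 21 cells of a library. Hspa1a had a ratio of -0.09 without barcodes with neuron, vascular or lymphocyte markers. Unfolded protein genes had 3 of 16 above, the endoplasmic reticulum chaperones Calr (0.28), Canx (0.22) and Pdia4 (0.36), and Ppp1r15a (-0.64) below. Immediate-early genes, which dissociation itself induces, had 3 of 18 above (Jun, Btg2, Zfp36l1) and 0 below, and 15 of the 18 stood under 25% of another class. Fos, the best known of them, stood at 312 and 342 CPM. Clock genes had 1 of 13 above, Bhlhe40 (0.54), and matrix genes 1 of 15 above (Timp2) and 2 below (Sdc2 and Ncan). The plot of list members shows each gene of these lists.

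**Figure D4:**
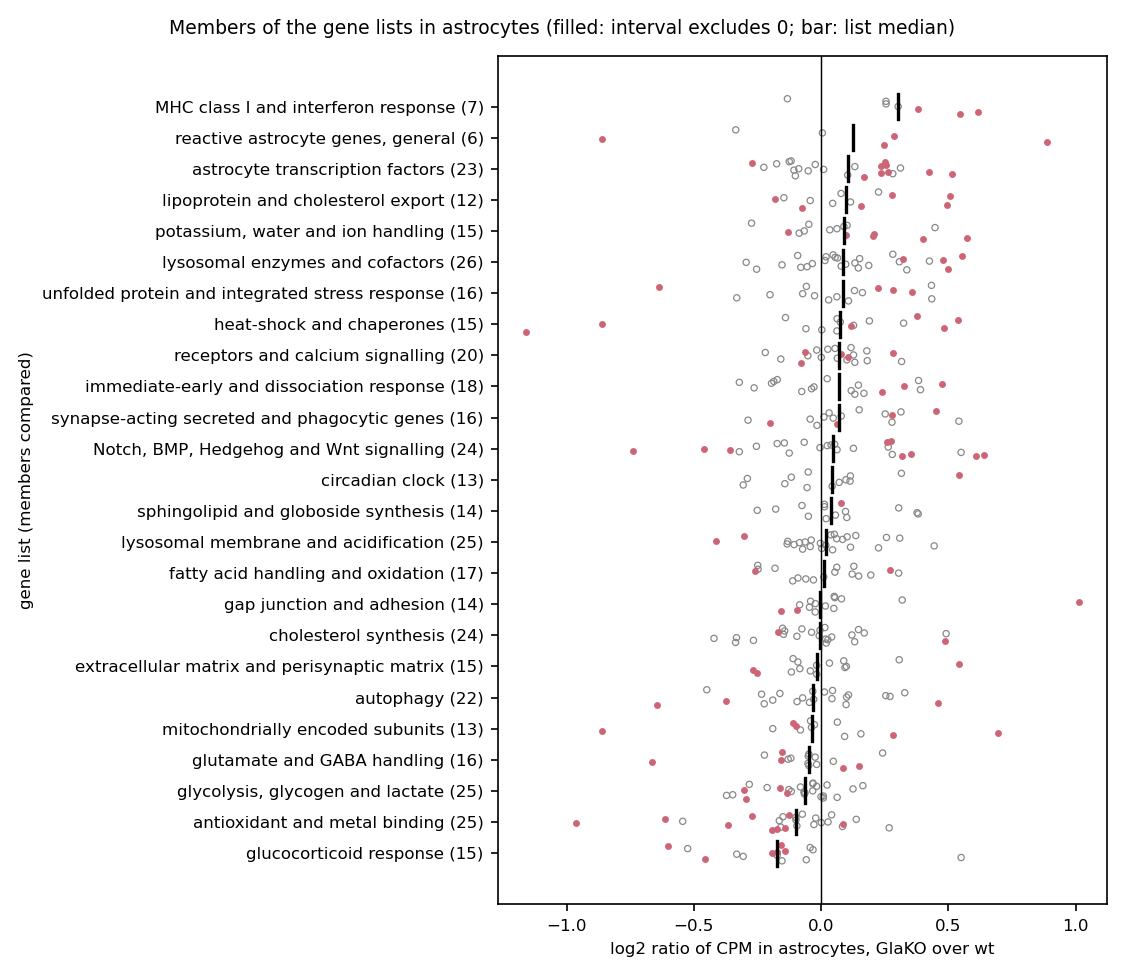
Log2 ratio of CPM in astrocytes, GlaKO over wt, for each compared member (points) of the gene lists (rows, number of members in brackets); filled points have an interval that excludes 0 and black bars are list medians. Among the lists drawn, those with at least 6 compared members, medians run from -0.17 for glucocorticoid response to 0.30 for MHC class I and interferon response, which is 0.17 without the 5 T cell marker barcodes.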

How the data were processed

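The authors deposited raw counts, the number of UMIs of each gene in each barcode, with no scaling. Software listed in the submitters' processing notes is Cell Ranger 6.0.1, Seurat 4 and R 4.1.3, with build mm10. Per the labels' protocols 10000 cells were loaded on 3' chemistry 3.1, and demultiplexing used Cell Ranger 4.0. How barcodes and genes were filtered, and which annotation served, was not given in the sources used here. Per the labels' protocols hippocampi were enzymatically dissociated, cleared of debris on a gradient and sorted with 7-AAD, which can change which cells and stress genes are seen. Barcodes were gated on raw counts by the rule above, and 4 other classes by the same sums with each other sum under its limit.

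CPM is a class's summed UMIs of a gene over all its UMIs in that library. Genes listed in both libraries (12744) with at least 100 summed astrocyte UMIs were compared (5523). Ratios have exact conditional 95% intervals and shares exact Clopper-Pearson intervals, for counting error only; PCR duplicates are removed by UMIs, but UMIs of 1 cell are not independent, so true errors are wider. Called means at least 1.5-fold. Named genes were the 15 highest and 15 lowest by the interval bound nearest 0, with UMIs in at least 20 astrocytes and a level of at least 25% of the highest other class. For levels, the 20 most abundant and 20 most enriched genes were taken, and for variation the 15 with the highest variance over mean. From each list the extreme members and those a pathway needs were named. Some genes that the rule names are not reported here. The members and lists were chosen with earlier results of these data known. Coordinates are GENCODE M21. The limits on other classes' markers drop doublets between gated classes; Scrublet in scanpy 1.11.5 marked 6 wt and 4 GlaKO astrocytes, which were kept, and alternatives removed the 4% highest scores. The interval and ratio code was tested on simulated data. Alternatives changed depth, count minimum, scaling (edgeR 4.0.16 in R 4.3.3), cell weights, gates and doublets. Python 3.11.15, numpy 2.4.6, scipy 1.17.1 and pandas 2.3.3 were used.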

Additional observations from a re-analysis of the deposited data

How the results depend on the processing

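Outside the choroid plexus gate the astrocyte share was 13.5% in wt and 11.05% in GlaKO, the opposite order to all barcodes; other gates gave 6.80 to 7.18% and 8.60 to 9.03%. The counts of genes at least 1.5-fold higher (114) and lower (71) became 53 and 46 of 2393 genes with each cell thinned to 1500 UMIs, 787 and 482 of 10245 genes with a minimum of 20 UMIs, and 9 and 4 of 1012 genes with a minimum of 500. Those thresholds test different numbers of genes. Lower genes numbered 107 with each cell weighted the same and 113 with cells split equally over 4 parts of depth; the cause was not tested. The remaining settings gave 92 to 127 higher and 63 to 84 lower genes. The higher share of called genes was 61.6% and ranged from 53.3 to 69.2%.

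Of 125 genes followed through up to 11 settings, 7 changed sign, 0 of them among the 30 named genes. Apoe stood at 0.0185 with cells split over depth. At 1500 UMIs Insig2 stood at -0.10, Sox2 at -0.0565 and Ncan at 0.0313. Apod stood at -0.64 with the other classes' limits halved and at -0.62 without the 4% highest doublet scores. Hspb1 stood at 0.10 with a marker sum of at least 10. Without barcodes carrying neuron, vascular or lymphocyte markers Hspb1 stood at 0.37, H2-D1 at -0.0498 and the transcription factor median at -0.000468, and with each cell weighted the same that median was -0.00935. H2-D1 also stood at -0.0504 without barcodes with T cell UMIs, the 1 setting chosen after seeing the data. The medians ranged from 0.04 to 0.17 for lysosomal enzymes, 0.03 to 0.14 for sphingolipid genes, 0.12 to 0.27 for reactive genes, and -0.07 to 0.02 for glutamate handling, whose sign therefore depended on the setting.

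No paired analysis was possible because each genotype is 1 library. No difference here can be separated from differences between these 2 preparations. Of 33 sphingolipid gene symbols, 30 were listed in both libraries and 14 had enough UMIs in astrocytes to be compared.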

Other observations

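Thbs4, a thrombospondin gene, was listed in the GlaKO library alone, with 62 UMIs in 36 of 418 astrocytes. At equal depth 5.07% of GlaKO astrocytes (3.17 to 7.65%) had a UMI of it, against 0.0736% of oligodendrocytes, and without thinning 8.61%. The wt level was not analysed here. The 36 cells (median depth 3081.5 UMIs) stood at 14774 CPM of Slc1a2 against 9919 CPM in the other 382 (median 3435 UMIs), at 1934 and 1021 CPM of Hopx, and at 773 and 520.2 CPM of Id4. Igfbp2, which reached 443 CPM in the other cells, gave 0 UMIs in them, and Gfap stood at 122 and 235 CPM. These cells were chosen by a gene with few UMIs per cell after its values were seen, so the values describe them and carry no test.

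Dcx, a gene of newborn neurons, gave 0 UMIs in wt and 5 in GlaKO astrocytes, and Eomes 0 and 2.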
